A study of Mus musculus with 6 samples.

Results

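The transcripts of the nuclear-encoded subunits of mitochondrial complex I were followed in A375, an established human melanoma cell line, after guides against ABCE1 or YAE1. The 38 members were chosen by Ensembl identifier from a list of NDUFA, NDUFB, NDUFC, NDUFS and NDUFV genes and NDUFAB1. The rule names no measured values, but earlier results of these data were known when the members were chosen. All 38 identifiers were among the 62492 of the deposited table, which itself gives no symbols. All 6 libraries came from A375 cells that received Cas9 and a guide by lentivirus and were kept in puromycin at 10 µg/mL, with RNA taken 7 days after selection. The 2 control libraries carried guides against LacZ or Luciferase, 2 libraries carried ABCE1 guides (sgAbce1) and 2 carried YAE1 guides (sgYAE1). The labels give neither clones nor the number of guides per gene, and do not say that the 2 libraries of a group were separate cultures, so p-values measure the spread between libraries, which may be technical. The labels name the organism as mouse and the cell type as human, and the genotype of the second library of each knockout ends in 2 (Abce2, Yae2), so groups were taken from the titles. The transcripts of ABCE1 and YAE1, the mitochondrially encoded subunits, the assembly factors of complex I, melanocytic marker genes and markers of other cell types were not analysed here, so neither the knockouts nor the cell type were checked.

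Complex I oxidises NADH in the mitochondrial matrix, passes the electrons along a chain of iron-sulfur clusters to ubiquinone and pumps protons across the inner membrane. Its matrix arm holds the flavin and the clusters, and its membrane arm holds the proton channels, whose core subunits are encoded by mitochondrial DNA and are not among the members. The conserved core subunits carry the catalysis, and accessory subunits around them are needed for assembly and stability. The clusters of complex I are built inside mitochondria, whereas ABCE1, an ATPase that splits ribosomes, is an iron-sulfur protein of the cytosol that receives its clusters through an adaptor of YAE1 and LTO1. By their usual roles the members were grouped into 7 nuclear-encoded core subunits, 9 accessory subunits of the matrix arm, 9 of the proximal membrane arm and 11 of the distal membrane arm. NDUFAB1, the mitochondrial acyl carrier protein, and NDUFA4, which was later assigned to complex IV, were kept apart.

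The values were FPKM, which divide the fragments of a gene by its length and by the library total. Library totals recovered from them ran from 15713011 to 18399717.5 fragments. Libraries of a group correlated at r = 0.992 to 0.994 across the 12578 genes tested, which are not independent replicates, and libraries of different groups at 0.942 to 0.98. These 12578 genes had a mean of at least 1 FPKM, and 35 of the 38 members were among them. In bulk RNA, fewer cells with a transcript and less of it per cell cannot be told apart.

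Subunit transcripts spanned a wide range of levels although their proteins enter 1 complex. The mean over the 6 libraries was 50 FPKM or more for 10 members, 10 to 50 for 14, 1 to 10 for 11 and under 1 for 3, with a median of 19.9 FPKM over the 38. The median of all genes tested was 6.14 FPKM. NDUFS5 (ENSG00000168653), a small subunit on the intermembrane-space face, was listed at 253 and 277 FPKM in the controls, 228 and 249.8 with ABCE1 guides and 301 and 266 with YAE1 guides. NDUFA1 (ENSG00000125356), a small membrane subunit needed for early assembly, followed at 167 and 185, 190.0 and 203 and 236 and 205 FPKM. These 2 genes held 31.1% to 34.3% of the FPKM summed over the 38 members, so the sum is not used as a measure of the complex. After them came NDUFB7 with a mean of 83.3 FPKM, NDUFB10 with 78.1 and NDUFA8 with 77.4. These 3 differ by less than the range over the 6 libraries of each of them. The order in FPKM depends on the gene model. By fragments per library, without the length, NDUFS5 had 1966.5 to 2775.5, and higher means were reached by NDUFA4 with 2707.5 to 3227.5 and NDUFS1 with 2572.5 to 3299.5. This order takes the smallest number of fragments that the values allow for each gene. The values fix that number only up to a whole multiple, so the order is not settled. The smallest gene model lengths that the values allow were 12174 bases for NDUFS1, 548 for NDUFS5 and 421 for NDUFA1.

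**Figure D1:**
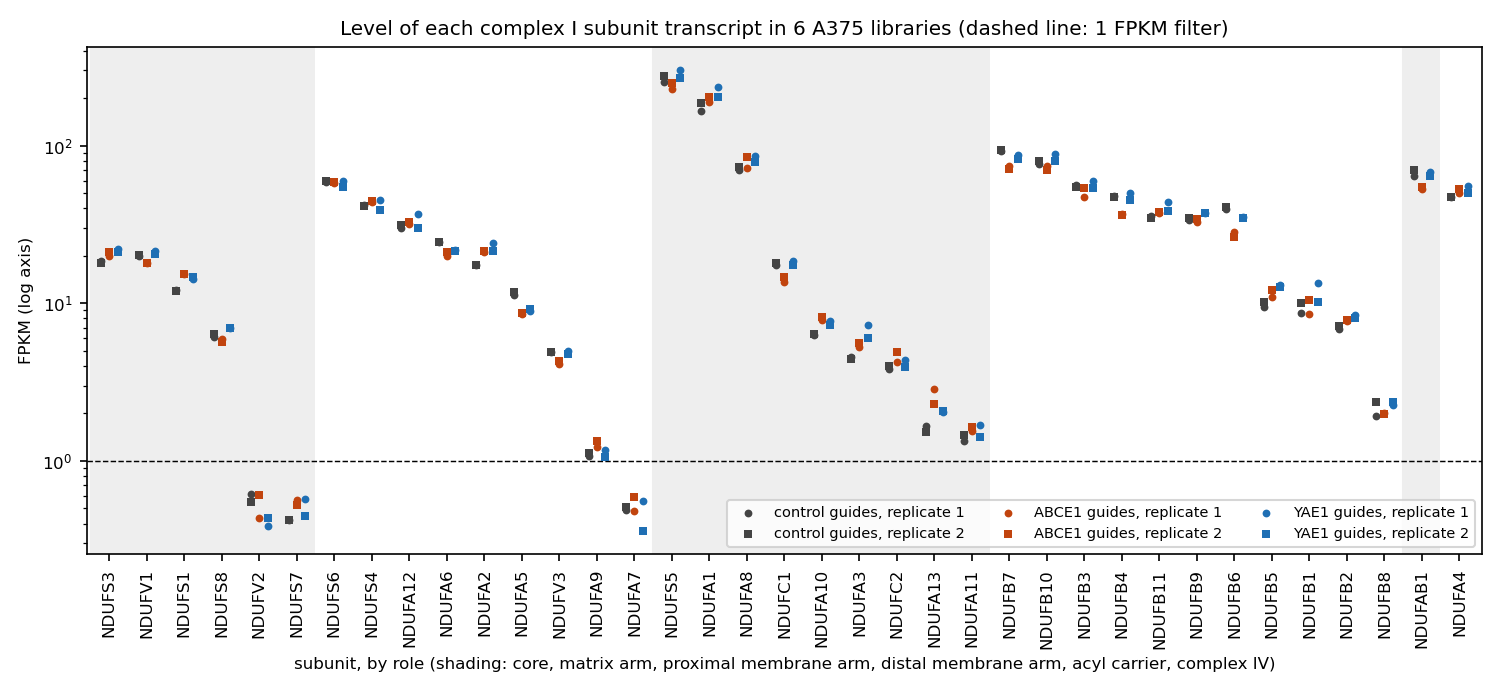
FPKM on a log axis for 37 of the complex I subunit transcripts (x axis, ordered by role and shaded by role group) in the 6 libraries, with control guides in grey, ABCE1 guides in orange and YAE1 guides in blue, circles for replicate 1 and squares for replicate 2. NDUFS5 and NDUFA1 lie highest, and NDUFV2, NDUFS7 and NDUFA7 lie under the dashed line at 1 FPKM, below which genes were not tested.

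NDUFV2, NDUFS7 and NDUFA7 did not reach the level needed for the test. NDUFV2 (ENSG00000178127), which carries the iron-sulfur cluster off the main electron path, was at 0.611 and 0.544 FPKM in the controls, 0.434 and 0.605 with ABCE1 guides and 0.384 and 0.432 with YAE1 guides, from 17.5 to 30.5 fragments per library. NDUFS7 (ENSG00000115286), which holds the last cluster before ubiquinone, was at 0.423 and 0.419, 0.563 and 0.523 and 0.57 and 0.448 FPKM, from 55 to 71.5 fragments. NDUFA7 (ENSG00000267855) of the matrix arm was at 0.488 and 0.51, 0.48 and 0.589 and 0.555 and 0.358 FPKM, from 8.5 to 14.5 fragments. Such levels are far below those of partners in the same complex, such as NDUFV1 at 19.6 FPKM. NDUFA9, NDUFA11, NDUFA13 and NDUFB8 were also low, with means of 1.16, 1.51, 2.07 and 2.14 FPKM. How the authors counted fragments shared by overlapping genes, read-through transcripts or processed pseudogenes is not given in the sources used here, and the part of this in the low levels was not tested. In a fit without the filter none of the 3 untested members was called in any of the 3 comparisons, with limma adjusted p of 0.45 to 0.92. At these depths a change would have been hard to detect: counting error alone was up to 34.3% for NDUFA7 and 23.9% for NDUFV2, against at most 12.6% for the 35 members tested.

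The first comparison set ABCE1 guides against control guides. Subunit transcripts moved in both directions and by little. Of 35 members tested, 6 rose, 9 fell and 20 did not pass the test (limma on log2(FPKM + 1), adjusted p under 0.05 over all genes tested). Among all genes tested 37.5% were called higher and 20.4% lower, 57.9% in all, and among the 4828 genes between 7.46 and 52.3 FPKM, the middle level range of the members, the shares were 41% and 24.6%. The members' shares, 17.1% higher and 25.7% lower, held fewer higher calls than that background and about as many lower calls. The median log2 change was 0.0094 over the members and 0.098 over all genes. None of the 35 members changed 2-fold, and neither did most genes, with 763 of the 12578 tested past it. The median size of a change regardless of sign was 0.15 over the members against 0.28 over all genes. Both ABCE1 libraries lay above both controls for 16 members and below both for 14, where 50.6% and 30.9% of all genes did so.

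Among the core subunits NDUFS1 and NDUFS3 rose, NDUFV1 fell and NDUFS8 did not pass. NDUFS1 (ENSG00000023228), the largest core subunit and a holder of several clusters, was at 12.1 and 12 FPKM in the controls and 15.3 and 15.3 with ABCE1 guides, 27.2% higher in the mean, with a change of 0.32 ± 0.045 on the log2 scale (SE, limma adjusted p = 0.0011). The 2 groups do not overlap and each pair of libraries lies within 0.1 FPKM. NDUFS3 (ENSG00000213619), a core subunit near the ubiquinone site, went from 18.5 and 18.1 to 20.01 and 20.99 FPKM, with a change of 0.16 ± 0.048 on the log2 scale (SE, limma adjusted p = 0.029). NDUFV1 (ENSG00000167792), which binds NADH and the flavin, went from 19.8 and 20.2 to 17.9 and 18.1 FPKM, with a change of -0.15 ± 0.045 on the log2 scale (SE, limma adjusted p = 0.030). The calls of NDUFS3 and NDUFV1 were each lost when any 1 of the 4 libraries compared was left out. Calls over all genes also became fewer in those fits. With single libraries left out, the log2 change ran from 0.12 to 0.19 for NDUFS3 and from -0.16 to -0.13 for NDUFV1. NDUFS8 (ENSG00000110717), a core subunit that holds clusters, was at 6.12 and 6.33 and 5.94 and 5.66 FPKM (log2 change of -0.087 ± 0.056 SE, limma adjusted p = 0.22). Of the 5 subunits that bind iron-sulfur clusters, 3 were tested, and of these NDUFS1 rose, NDUFV1 fell and NDUFS8 did not pass.

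In the distal membrane arm 3 of 11 accessory subunits fell with ABCE1 guides (27.3%) and 1 rose (9.1%). Over all genes tested 20.4% were called lower and 37.5% higher. NDUFB6 (ENSG00000165264), a subunit with a single membrane span, fell from 39.5 and 40.6 FPKM to 28.3 and 26.2, with a change of -0.54 ± 0.049 on the log2 scale (SE, limma adjusted p = 0.00019), and its mean fell by 31.98%. It was the member with the largest change in this comparison on this scale. NDUFB4 (ENSG00000065518) fell from 47.6 and 47.2 to 36.97 and 36.4 FPKM, with a change of -0.36 ± 0.055 on the log2 scale (SE, limma adjusted p = 0.0016). NDUFB7 (ENSG00000099795), on the intermembrane-space face, fell from 92.4 and 93.5 to 73.8 and 71.2 FPKM, with a change of -0.35 ± 0.045 on the log2 scale (SE, limma adjusted p = 0.00071). For these 3 genes the groups stand clearly apart. NDUFB5 (ENSG00000136521) was the member called higher, at 9.47 and 10.2 FPKM in the controls and 10.9 and 12.1 with ABCE1 guides, and its call was lost without ABCE1 replicate 2, without control replicate 1, after either rescaling and with no filter. The other 7 distal subunits had log2 changes of -0.13 (NDUFB3) to 0.13 (NDUFB2) that did not pass. NDUFAB1 (ENSG00000004779), which enters complex I in association with NDUFA6 in the matrix arm and NDUFB9 in the distal arm, was at 63.9 and 69.5 FPKM in the controls and 53.4 and 54.6 with ABCE1 guides, and was called lower.

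In the matrix arm 3 of the 8 accessory subunits tested fell and 1 rose with ABCE1 guides. As shares these were 37.5% and 12.5%, against 20.4% lower and 37.5% higher over all genes tested. NDUFA5 (ENSG00000128609), an accessory subunit of the ubiquinone-binding part, fell from 11.2 and 11.9 to 8.59 and 8.71 FPKM, with a change of -0.38 ± 0.052 on the log2 scale (SE, limma adjusted p = 0.0010), and its mean fell by 25.1%. NDUFA6 (ENSG00000184983), which anchors the acyl carrier protein, was at 24.5 and 24.4 FPKM in the controls and 19.8 and 21.1 with ABCE1 guides, and NDUFV3 at 4.9 and 4.9 and 4.14 and 4.27, and both were called lower. The call of NDUFV3 was lost when any 1 of the libraries compared was left out. NDUFA2 (ENSG00000131495), an accessory subunit with a thioredoxin-like fold, was called higher at 21.2 and 21.3 FPKM against 17.4 and 17.4 in the controls. NDUFS4, NDUFS6, NDUFA9 and NDUFA12 did not pass.

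In the proximal membrane arm 2 of 9 accessory subunits rose and 1 fell with ABCE1 guides. As shares these were 22.2% and 11.1%, against 37.5% higher and 20.4% lower over all genes tested. NDUFA13 (ENSG00000186010), also known as GRIM-19, rose from 1.67 and 1.53 to 2.86 and 2.29 FPKM, 60.9% higher in the mean, with a change of 0.45 ± 0.10 on the log2 scale (SE, limma adjusted p = 0.0077). This is a low transcript, counted with 73 to 121.5 fragments per library, and the call was lost with quantile normalization. NDUFA10 (ENSG00000130414), which sits on the matrix face of the membrane arm, was called higher at 7.84 and 8.2 FPKM against 6.26 and 6.37 in the controls. NDUFC1 (ENSG00000109390), a small membrane subunit, was called lower at 13.6 and 14.6 FPKM against 17.5 and 18. NDUFA1, NDUFA3, NDUFA8, NDUFA11, NDUFC2 and NDUFS5 did not pass, nor did NDUFA4 of complex IV, which was at 47.1 and 47.3 FPKM in the controls and 49.8 and 52.6 with ABCE1 guides.

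The balance of higher and lower calls with ABCE1 guides depended on the scale. Centring each library on its median gene, which moved the median of all genes by -0.14, gave 2 members higher and 15 lower, with a median of -0.13. Quantile normalization, which moved it by -0.12, gave 4 and 10, with a median of -0.0065. The calls over all genes turned as well, from 4715 higher and 2563 lower to 3271 and 3915 with centring and 3436 and 3571 with quantile normalization. All 9 members called lower remained so under both. Of the 6 called higher, NDUFS1 and NDUFA13 remained with centring, and NDUFS1, NDUFA2 and NDUFA10 with quantile normalization. Relative to the median of all genes, the log2 change was -0.64 for NDUFB6, -0.48 for NDUFA5 and 0.23 for NDUFS1. With all libraries the members' median was 0.0094, without ABCE1 replicate 1 it was 0.092, without control replicate 2 0.063, without ABCE1 replicate 2 -0.015 and without control replicate 1 -0.022, so its sign is not settled by these libraries.

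The second comparison set YAE1 guides against the same control libraries. More subunit transcripts were called higher than lower: 10 rose, 4 fell and 21 did not pass. Of all genes tested 34.2% were called higher and 17.6% lower, 51.8% in all, and in the middle level range of the members 35.7% and 23.3%. The members' shares of 28.6% higher and 11.4% lower were thus both under that background. The median log2 change of 0.11 was close to that of all genes, 0.096. No member changed 2-fold, and neither did most genes, with 473 of the 12578 tested past it. Both YAE1 libraries lay above both controls for 18 members and below both for 4, against 49.8% and 27.9% of all genes.

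NDUFS1 and NDUFS3 of the core rose with YAE1 guides, and NDUFS8 and NDUFV1 did not pass. NDUFS1 was at 14.3 and 14.7 FPKM, with a change of 0.25 ± 0.045 on the log2 scale (SE, limma adjusted p = 0.0043). NDUFS3 was at 21.9 and 21.1 FPKM, with a change of 0.22 ± 0.048 on the log2 scale (SE, limma adjusted p = 0.0087). The call of NDUFS3 was lost after centring and without control replicate 2. NDUFS8 was at 6.94 and 6.94 FPKM (log2 change of 0.14 ± 0.056 SE, limma adjusted p = 0.081) and NDUFV1 at 21.4 and 20.5 FPKM (log2 change of 0.062 ± 0.045 SE, limma adjusted p = 0.29).

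The accessory subunits with the largest called changes with YAE1 guides came from all 3 regions. NDUFA3 (ENSG00000170906), a small membrane subunit near the foot of the matrix arm, rose from 4.57 and 4.43 to 7.23 and 6.01 FPKM, 47.3% higher in the mean, with a change of 0.47 ± 0.086 on the log2 scale (SE, limma adjusted p = 0.0046). Its YAE1 libraries differ from each other by more than its controls do, but neither reaches down to them. NDUFA2 rose from 17.4 and 17.4 to 24.01 and 21.3 FPKM, with a change of 0.36 ± 0.061 on the log2 scale (SE, limma adjusted p = 0.0031). NDUFB5 rose from 9.47 and 10.2 to 12.96 and 12.6 FPKM, with a change of 0.35 ± 0.065 on the log2 scale (SE, limma adjusted p = 0.0047). NDUFA5 fell from 11.2 and 11.9 to 8.9 and 9.15 FPKM, with a change of -0.32 ± 0.052 on the log2 scale (SE, limma adjusted p = 0.0026), and its mean fell by 21.8%. NDUFA1 rose from 167 and 185 to 236 and 205 FPKM, with a change of 0.32 ± 0.082 on the log2 scale (SE, limma adjusted p = 0.017). It no longer passed without YAE1 replicate 1, without control replicate 1, after centring and with no filter. NDUFA10, NDUFB2 and NDUFB11 were also called higher, with YAE1 values of 7.73 and 7.23, 8.36 and 8.05, and 43.8 and 38.6 FPKM against 6.26 and 6.37, 6.86 and 7.12, and 35.9 and 34.7 in the controls. None of the 3 passed without YAE1 replicate 1 or without either control library. NDUFA6, NDUFB6 and NDUFB7 were called lower. NDUFA6 was at 21.7 and 21.3 FPKM, NDUFB6 at 35.4 and 34.8 and NDUFB7 at 87.04 and 81.98 FPKM, and without either control library or without YAE1 replicate 2 none of the 3 passed. NDUFB4, NDUFC1 and NDUFAB1, called lower with ABCE1 guides, had log2 changes of 0.0037, 0.018 and -0.020 that did not pass, and each changed sign under centring, quantile normalization or both.

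These counts changed with single libraries, and those over all genes fell too. Without control replicate 1 the YAE1 comparison called 5 members higher and 1 lower, and without control replicate 2 it called 6 and 1. Without YAE1 replicate 1 it called 6 higher and 4 lower, and without YAE1 replicate 2 14 and 1. Over all genes the calls numbered 4303 higher and 2214 lower with all libraries, 3037 and 1509 without control replicate 1, 3276 and 1662 without control replicate 2, 3631 and 2022 without YAE1 replicate 1, and 3867 and 2140 without YAE1 replicate 2. NDUFA5 was called lower in each of these 4 fits. The members' median was 0.034 without YAE1 replicate 1 and 0.17 without YAE1 replicate 2. Centring, which moved the median of all genes by -0.097, gave 4 higher and 4 lower, and the 4 that remained higher were NDUFA2, NDUFA3, NDUFB5 and NDUFS1. Quantile normalization, which moved it by -0.092, gave 13 higher and 3 lower, with a median of 0.069 against 0.016 after centring. Calls over all genes were 3014 higher and 3124 lower with centring and 3124 and 2865 with quantile normalization.

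**Figure D2:**
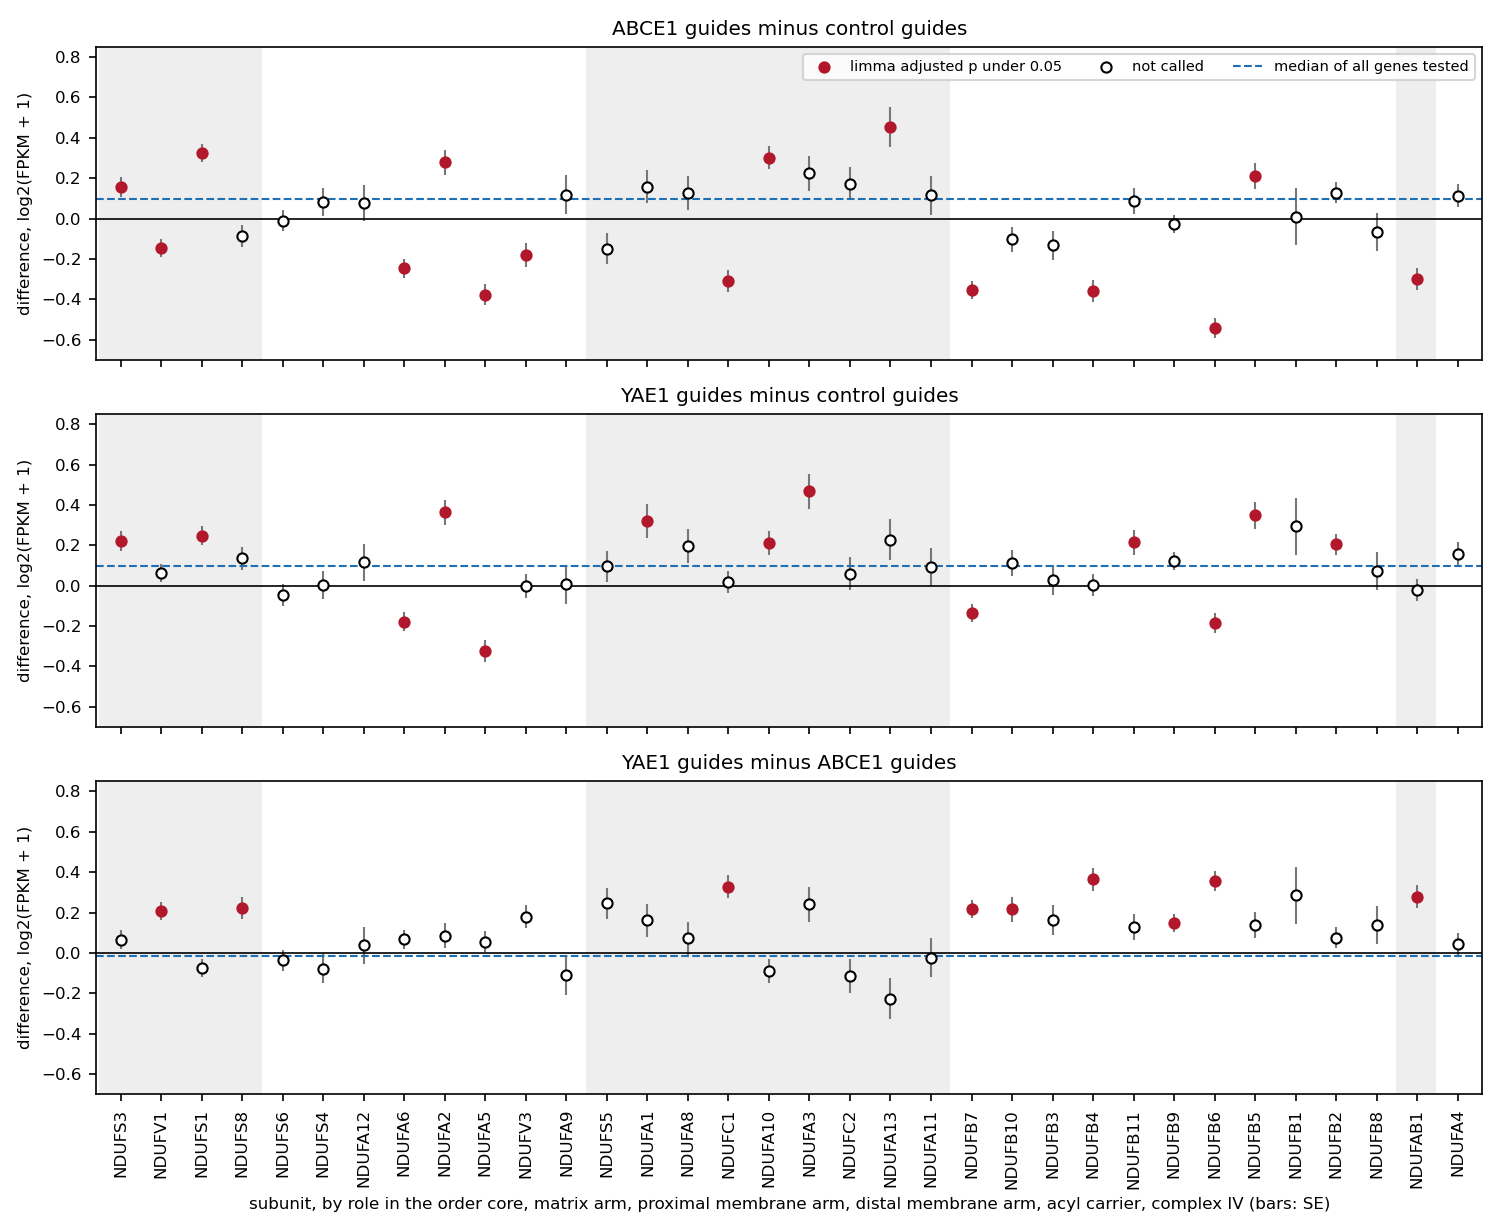
Difference in log2(FPKM + 1) with its SE (y axis) for 34 of the complex I subunits tested (x axis, by role), for ABCE1 guides minus control, YAE1 guides minus control and YAE1 minus ABCE1 guides, 2 libraries per group, with filled points past the limma threshold and a dashed line at the median of all genes tested. Points lie on both sides of 0 against control, from -0.54 to 0.45 with ABCE1 guides, and the 9 filled points of the lowest panel are all above 0.

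The third comparison set the YAE1 libraries directly against the ABCE1 libraries. Here 10 of 35 subunit transcripts were higher with YAE1 guides, 0 were lower and 25 did not pass (limma). Of all genes tested 15.3% were higher and 18.7% lower, 34% in all, and in the middle level range of the members 17.7% and 24.4%. Against these shares the members' 28.6% higher was above the background and the count of 0 lower was below it. At an unadjusted limma p under 0.05, 13 members were higher and 0 lower, against 2678 and 3100 of the 12578 genes tested. Voom on recovered fragments called 12 members higher and 0 lower, against 2230 and 2786 of all genes. The median log2 difference was 0.14 over the members and -0.014 over all genes, and it was 0.18 after centring and 0.13 with quantile normalization. Both YAE1 libraries lay above both ABCE1 libraries for 23 members and below both for 4, while 33.4% and 36.8% of all genes did so.

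Among the members higher with YAE1 guides were 5 of the 11 distal subunits, NDUFS8 and NDUFV1 of the core, NDUFC1 of the 9 proximal subunits and NDUFAB1, and none of the 8 matrix arm accessory subunits tested was called. The shares over all genes tested were 15.3% higher and 18.7% lower. NDUFB4 was at 49.98 and 45.1 FPKM with YAE1 guides against 36.97 and 36.4 with ABCE1 guides, with a log2 difference of 0.36 ± 0.055 (SE, limma adjusted p = 0.0056). NDUFB6 was at 35.4 and 34.8 against 28.3 and 26.2 FPKM, with a log2 difference of 0.35 ± 0.049 (SE, limma adjusted p = 0.0045), so it lay between the controls and the ABCE1 libraries. NDUFC1 was at 18.5 and 17.4 against 13.6 and 14.6 FPKM, with a log2 difference of 0.33 ± 0.056 (SE, limma adjusted p = 0.0076). In these 3 genes the YAE1 and ABCE1 libraries do not overlap, and in NDUFB4 and NDUFC1 the YAE1 values straddle those of the controls. NDUFAB1 was at 67.8 and 63.7 against 53.4 and 54.6 FPKM, with a log2 difference of 0.28 ± 0.055 (SE, limma adjusted p = 0.012). NDUFB7 was at 87.04 and 81.98 against 73.8 and 71.2 FPKM, with a log2 difference of 0.22 ± 0.045 (SE, limma adjusted p = 0.013). NDUFB9 and NDUFB10, the other distal subunits called, were at 37.4 and 37.2 and at 88.98 and 79.6 FPKM with YAE1 guides, against 32.7 and 34.4 and against 74.6 and 70.2 with ABCE1 guides. Their limma adjusted p was 0.042 and 0.04. The call of NDUFB9 was lost whichever library was left out, and that of NDUFB10 for every library but YAE1 replicate 2. Both were lost in the fit on the 4 libraries compared and with no filter. The calls of NDUFB7 and NDUFAB1 were lost when either ABCE1 library was left out and with no filter. All 11 distal subunits had a difference above 0, from 0.076 to 0.36. So had 27 of the 35 members tested and 5998 of the 12578 genes tested.

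Of the core subunits, NDUFS8 was higher with YAE1 guides (log2 difference of 0.22 ± 0.056 SE, limma adjusted p = 0.024), as was NDUFV1 (log2 difference of 0.21 ± 0.045 SE, limma adjusted p = 0.016). The call of NDUFS8 was lost when either ABCE1 library or either YAE1 library was left out and with no filter. That of NDUFV1 was lost when either ABCE1 library was left out. With single libraries left out, the log2 difference ran from 0.19 to 0.25 for NDUFS8 and from 0.18 to 0.24 for NDUFV1. In NDUFS8 the YAE1 libraries were above the controls and the ABCE1 libraries below them, although its ABCE1 change passed only after centring or quantile normalization and its YAE1 change did not pass. NDUFS1 and NDUFS3 did not pass, with log2 differences of -0.075 ± 0.045 (SE, limma adjusted p = 0.24) and 0.066 ± 0.048 (SE, limma adjusted p = 0.32).

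The YAE1 libraries were not alike in these genes. YAE1 replicate 1 was higher than replicate 2 in 32 of the 38 members (84.2%), against 52.1% of all genes tested, and their median log2 difference over the 35 members tested was 0.085. In the other groups replicate 2 tended to be higher, in 26 of 38 members for the controls and 29 for ABCE1 guides. Replicate 1 was the higher in 31.6% of members against 49.4% of all genes tested for the controls, and in 23.7% against 48.9% for ABCE1 guides. Relative to the mean of the controls on the log2(FPKM + 1) scale, the median member was at 0.17 and 0.034 in the YAE1 libraries. It was at -0.015 and 0.092 in the ABCE1 libraries, so by this measure YAE1 replicate 2 lay below ABCE1 replicate 2. The median of all genes tested was at 0.101 and 0.095 in the YAE1 libraries and at 0.097 and 0.099 in the ABCE1 libraries. The FPKM summed over all genes also differed, at 266479 and 259523 in the YAE1 libraries and 251572 to 253604 in the other libraries. The part of this in the members' difference was not tested. Among the knockout libraries, only YAE1 replicate 1 had its median member above that of all genes. Without YAE1 replicate 1 the direct comparison called 7 members higher and 1 lower (NDUFS4), with a median of 0.072. The 7 were among the 10 called with all libraries, and the calls of NDUFB9, NDUFB10 and NDUFS8 were lost. Without ABCE1 replicate 1 or without ABCE1 replicate 2 it called 4 higher, with medians of 0.082 and 0.17, and NDUFB4, NDUFB6 and NDUFC1 were among the 4 in both. With no filter on low genes it called 5. The higher calls over all genes fell as well, from 1928 to 1298 without YAE1 replicate 1, 835 without ABCE1 replicate 1, 919 without ABCE1 replicate 2 and 907 with no filter.

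**Figure D3:**
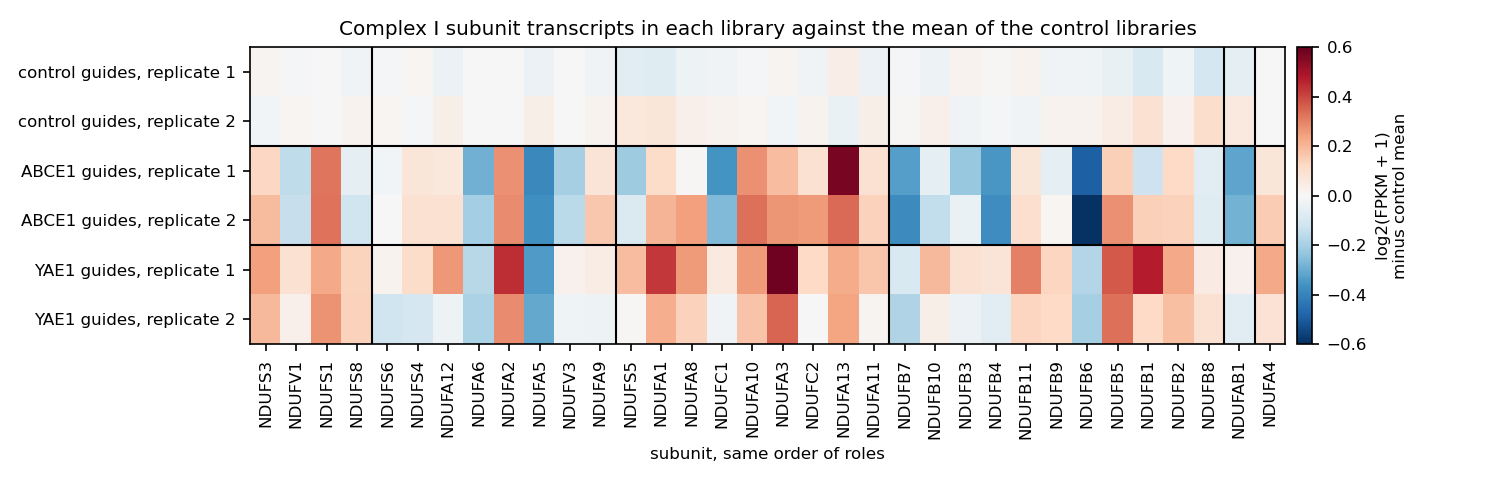
Heat map of log2(FPKM + 1) minus the mean of the 2 control libraries for 34 of the complex I subunits tested (columns, in the same order of roles) in each of the 6 libraries (rows), with red above and blue below the controls. NDUFA5, NDUFA6, NDUFB6 and NDUFB7 are blue in all 4 knockout libraries, NDUFB4, NDUFC1 and NDUFAB1 are clearly blue in the ABCE1 libraries alone, and more columns are red in YAE1 replicate 1 than in YAE1 replicate 2.

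Against control, the changes of the members kept to a narrower band around 0 than those of other genes. With ABCE1 guides 22 of the 35 lay within 0.2 of 0 on the log2 scale (62.9%), against 38.4% of all genes and 38.9% of genes in their middle level range. With YAE1 guides it was 23 members (65.7%), against 43.1% and 45.4%. Between the knockouts it was 22 members (62.9%), against 56.01% and 59.2%. Farthest out were NDUFB6, NDUFA13 and NDUFA5 with ABCE1 guides and NDUFA3, NDUFA2 and NDUFB5 with YAE1 guides. Level and change were compared across the 35 members, which share the libraries and their depth: Spearman's rho between mean FPKM and log2 change was -0.35 with ABCE1 guides, -0.13 with YAE1 guides and 0.37 between the knockouts. Over all genes tested it was -0.12, -0.13 and 0.024, so the YAE1 value is that of the background.

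**Figure D4:**
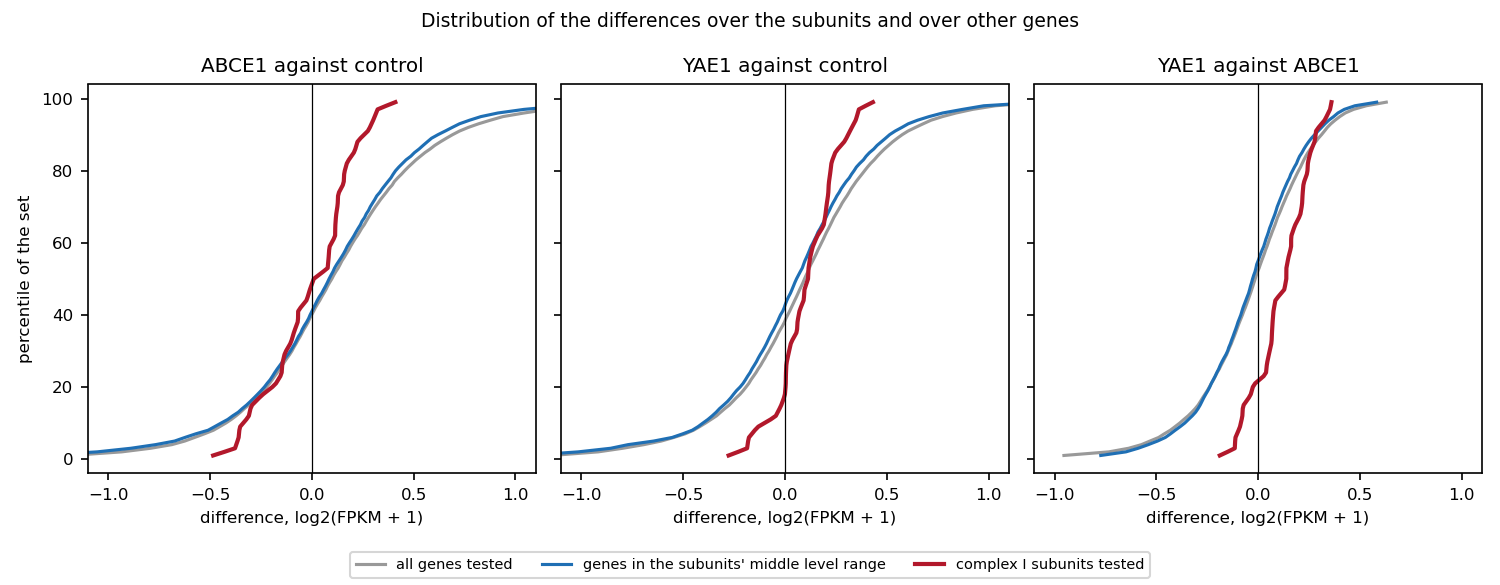
Cumulative distribution of the log2(FPKM + 1) difference (x axis, percentile of the set on the y axis) for the 35 complex I subunits tested in red, genes in their middle level range in blue and all 12578 genes tested in grey, for the 3 comparisons of 2 libraries with 2. The red curves are steeper than the others in the panels against control, and in the third panel the red curve lies to the right of the others over most of its length, with a median of 0.14 against -0.014 for all genes.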

How the data were processed

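RNA sequencing of 6 A375 libraries (1 µg RNA each, 150 bp strand-specific pairs) was used as deposited. The authors deposited 1 table of FPKM values per gene and library, with build GRCh37 per the submitters' processing notes. For the aligner, counting program and annotation, names were not given in the sources used here. Members, roles and tests were chosen with earlier results of these data known. Fragment numbers were recovered from the FPKM steps as multiples of 0.5 fragments (tolerance 0.003 of such a unit) for all 38269 genes above 0, up to a whole multiple per gene that the values do not fix. Intervals are not given, and counting errors cover counting only. The main test was limma 3.58.1 in R 4.3.3 on log2(FPKM + 1), which understates changes of low genes, for genes whose mean reached 1 FPKM: group means, all 6 libraries, eBayes with a trend (3 residual and 3.6 prior degrees of freedom), and Benjamini-Hochberg adjustment over all genes tested at 0.05. With 2 libraries against 2, the smallest 2-sided p of an exact permutation test is 0.33. Full statistics are given for the core subunits tested that are named and, for each comparison, for the 5 other members with the largest change among those past the threshold whose groups do not overlap. The scripts were tested on simulated data. The alternatives were pseudocount 0.1, no filter, a filter of 5 FPKM, centring, quantile normalization, fits on 4 libraries, a replicate block, voom and leaving out each library. The reference tables held here are for mouse, so other human genes and sequences were not used here. The values of 1 member are not reported here, although it counts in the totals; the figures by gene leave it out.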

Additional observations from a re-analysis of the deposited data

How the results depend on the processing

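The 9 summary values (members higher, members lower and the median change, in 3 comparisons) were refitted under 8 alternatives and with each library left out. Centring on the median gene turned the ABCE1 counts to 2 higher and 15 lower with a median of -0.13, and the YAE1 count to 4 higher with a median of 0.016. The cause of the general shift that centring takes out was not tested. With no filter, where 38269 genes enter the adjustment, 2 members were lower with YAE1 guides, against 1700 of all genes. In the same setting 5 members were higher with YAE1 than with ABCE1 guides, against 907 of all genes. Voom gave 13 members higher and 2 lower with YAE1 guides, against 4669 and 2398 of the 12578 genes tested. With each library left out, 4 to 8 members were higher and 7 to 9 lower with ABCE1 guides (median -0.022 to 0.092), 5 to 14 higher and 1 to 4 lower with YAE1 guides (median 0.034 to 0.17), and 4 to 14 higher and 0 to 1 lower between the knockouts (median 0.072 to 0.17). Where 1 library of a group is left, its spread is taken from the other groups. The ABCE1 median, near 0, was also -0.0065 with quantile normalization and -0.0096 with a filter of 5 FPKM. Among the members given with full statistics, 4 changed sign with YAE1 guides against control, none past the threshold with all libraries. With centring NDUFB4 was at -0.094, NDUFC1 at -0.079 and NDUFV1 at -0.035, and with quantile normalization NDUFC1 was at -0.011 and NDUFAB1 at 0.011. With each library left out NDUFB4 ran from -0.069 to 0.076, NDUFC1 from -0.022 to 0.058 and NDUFAB1 from -0.080 to 0.040. Replicate numbers did not pair the libraries: deviations of same-numbered libraries correlated at -0.053 to -0.0093. A replicate block gave 5 higher and 7 lower members with ABCE1 guides, 10 and 3 with YAE1 guides, and 9 and 0 between the knockouts. Over all 12578 genes tested it gave 4579 higher and 2479 lower, 4130 and 2134, and 1675 and 2103, in the same order.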
